A study of Mus musculus with 3 samples.

Results

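The genes described here encode the nuclear-encoded part of the mouse respiratory chain. They were chosen by symbol among the protein-coding genes of GENCODE release 21 on the assembled nuclear chromosomes (build mm10): every Nduf, Uqcr and Atp5 gene, Sdha to Sdhd, and Cox4 to Cox8 genes with a subunit letter. This gave 94 gene records of 21938, carrying 93 symbols, because Atp5o stands in the annotation as 2 records. They comprise 36 subunits and 8 assembly factors of complex I, 4 genes of complex II, 8 of complex III, 20 of complex IV and 18 of complex V. Ndufa4 and Ndufa4l2 were placed with complex IV, of which the Ndufa4 protein is now known to be a subunit.

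Complexes I to IV pass electrons from NADH and succinate to oxygen, complexes I, III and IV pump protons across the inner mitochondrial membrane, and complex V, the ATP synthase, uses that gradient to make ATP. Most subunits are encoded in the nucleus, and the rest in the mitochondrial genome, so the chain draws on both. In red cell precursors the mitochondria also make haem, and they are lost when the cell matures. Promoters of nuclear respiratory genes are known as targets of NRF1, of the ETS factor GABP (also called NRF2), of ERR receptors and of YY1.

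The data are DNase-seq, which maps open chromatin by its sensitivity to the nuclease DNase I, in MEL, an immortalised mouse erythroleukaemia line. All cells had received zinc dichloride for 24 hours, at a dose of 125 in a unit whose prefix cannot be read in the labels. The 3 libraries form 1 group: 2 technical replicates (numbers 1 and 3) of biological replicate 1, and 1 library of biological replicate 2. Untreated cells were not analysed here, and no effect of zinc can be read from these lists. A promoter was taken as the stretch within 1000 bp of any annotated start of a gene, and a gene was called when a peak overlapped it by at least 1 bp.

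The list of biological replicate 1 held 304049 peaks and that of biological replicate 2 held 106591, all 150 bp wide, and read depth is unknown for both. Each peak carries a score deposited by the authors, which ranks peaks within its list only. The lists had median scores of 62 and 30. Values below are given for replicate 1 and then replicate 2 unless stated otherwise, with no standard deviation, since each biological replicate has 1 list. Among 10 erythroid marker genes fixed for a check of the cell label, 9 were called in replicate 1 and 6 in replicate 2. Of all protein-coding genes 63.6% and 49.0% were called, so the replicate 2 count lay near that share. Hba-a1 had no peak in either list, and Slc4a1, Hbb-bs and Alas2 had one in replicate 1 alone. Markers of liver (1 of 4 in each list, Alb and then Apoa1), neurons (1 of 3) and skeletal muscle (1 of 4) were mostly without a peak.

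Nearly all of the respiratory chain genes had an accessible promoter. A promoter peak was present for 88 of 94 (93.6%, Wilson 95% interval 86.8 to 97.0%) in replicate 1, where 63.6% of all protein-coding genes had one. The count in replicate 2 was again 88 of 94, where the share of all genes was 49.0%. The same 88 genes were called in both lists, beside 48.9% of all genes, and 0 were called in one list alone. With this window no member was lost between the longer and the shorter list, while the share of all genes fell. The window also admits peaks nearer to a start of another gene. Counting only peaks nearest to a start of the gene itself, 83 and 78 genes were called, beside 62.3% and 47.1% of all genes. Both lists then called 75, for which the share of all genes was not computed. Every gene of complexes I (44 of 44 with the assembly factors), II (4 of 4) and III (8 of 8) was called, as were 15 of 20 genes of complex IV and 17 of 18 of complex V. The genes without a peak were Cox4i2, Cox6a2, Cox7b2, Cox8b, Cox8c and the second record of Atp5o (ENSMUSG00000116933).

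Hotspots, the broader stretches of enriched cutting, gave the same picture. A promoter hotspot was present for 88 of 94 genes in each list, where 64.3% and 49.3% of all genes had one. The authors' −log10 q value of a hotspot stops at a ceiling of 100, and no hotspot below the ceiling exceeds 6. All 88 genes reached the ceiling in replicate 1 (59.4% of all genes), and 48 of 94 (51.1%, 41.1 to 60.9%) reached it in replicate 2 (23.1% of all genes). The widest hotspot at each of these promoters had a median of 1457.5 bp in replicate 1 and 980 bp in replicate 2, beside 1512.5 bp and 899.5 bp over all genes with one. Hotspot width was thus close to that of other called promoters, while more of these genes were called. Among genes with a hotspot, the ceiling was reached by 88 of 88 in replicate 1, beside 13034 of 14098 over all genes. In replicate 2 it was reached by 48 of 88, beside 5066 of 10816.

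CpG content goes with promoter accessibility and was set beside these counts. The CpG ratio, observed over expected CpG from 250 bases before to 50 after the main start, had a median of 0.804 over the 94 genes and 0.536 over all genes. A ratio of 0.6 or more was found for 68 of 94 (72.3%), compared with 45.3% of all genes. All 68 of these CpG-rich promoters had a peak in both lists, where 85.1% and 74.5% of all CpG-rich promoters did, and 74.4% in both. Of the 26 promoters with a ratio under 0.6, 20 (76.9%, 57.9 to 89.0%) had a peak in both lists, where 45.8% and 28.0% of all such promoters did, and 27.8% in both. The higher share was therefore seen within each CpG class as well. The ratio describes the main start only, whereas a call can rest on another start or lie nearer to a neighbour. Atp5f1 (ratio 0.217) had its highest peaks 748 and 768 bp downstream of its main start, nearest to a start of Wdr77. The CpG class therefore need not describe the stretch that was called. Low-CpG promoters with a peak included Cox7a1 (ratio 0.304), Sdhb (0.360) and Cox7b (0.368).

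**Figure D1:**
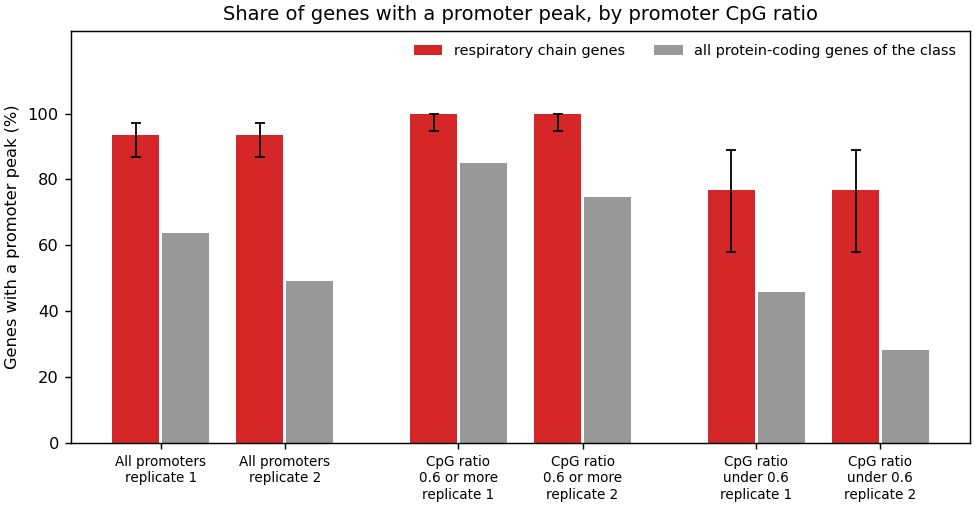
Share of genes with a promoter peak (y axis, percent) in the list of each biological replicate, for all promoters and for promoters split at a CpG ratio of 0.6. Red bars are the respiratory chain genes with 95% Wilson intervals, grey bars all protein-coding genes of the same class; the red bar is the taller in each pair, with 93.6% against 63.6% and 49.0% over all promoters.

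Scores of these promoters were close to those of other called promoters. Over the 88 called genes the highest promoter score had a median of 138.5 in replicate 1 (lowest 103, highest 149), beside 135 over all 13953 called genes. In replicate 2 the median was 47.5 (19 to 71), beside 47 over all 10758 called genes. In replicate 1, 66 of 88 genes (75%, 65.0 to 82.9%) ranked above the middle of all called genes, and in replicate 2 48 of 88 (54.5%, 44.2 to 64.5%) did. The top 10% of called genes held 7 of the 88 in replicate 1 and 4 in replicate 2. The lowest 10% held 0 and 4. The middle 50% of these genes ranked between the 51.7th and 71.8th percentile in replicate 1 and between the 34.5th and 74.9th in replicate 2. In replicate 1 the genes therefore lay in a narrow band above the middle, and in replicate 2 they were spread more widely around it. Across genes, the scores of the 2 lists were weakly related, with a Spearman rho of 0.358 over the 88 genes and 0.573 over 10731 genes called in both. Genes in 1 list share its libraries and depth, so these rho values only describe the lists.

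**Figure D2:**
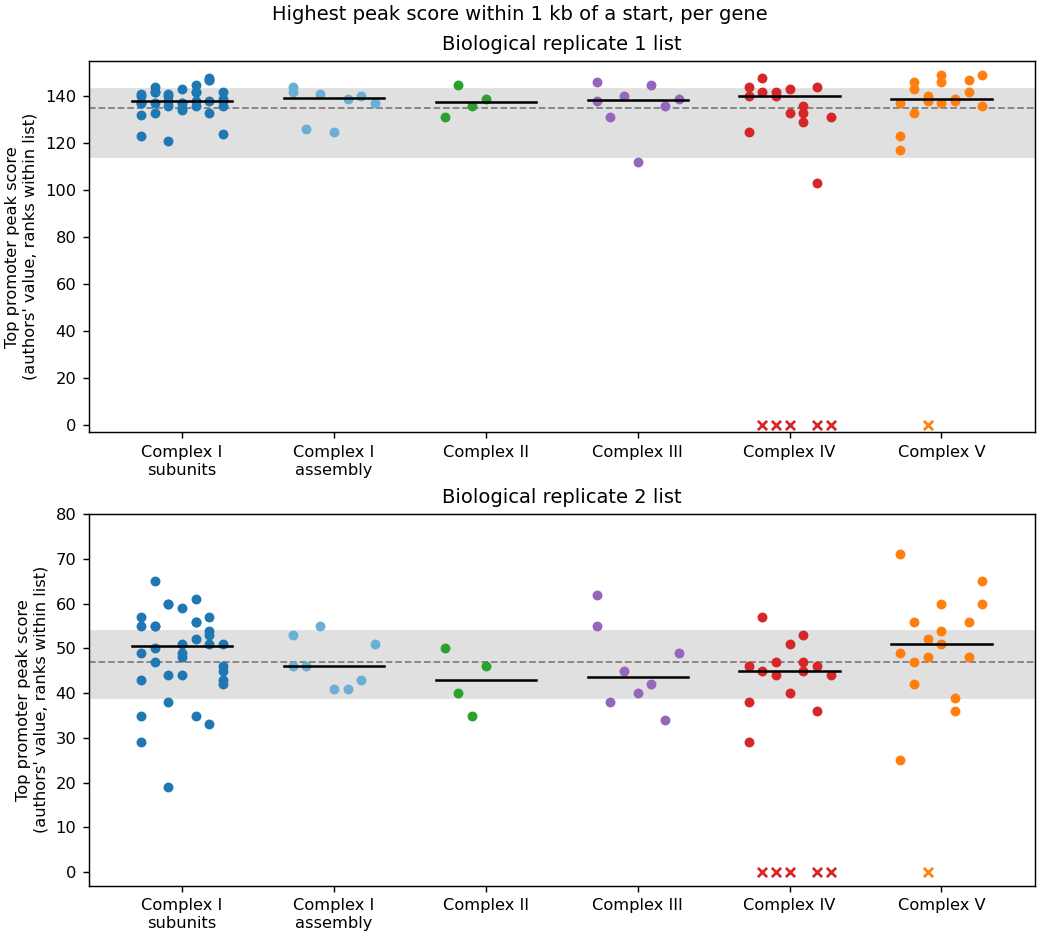
Highest promoter peak score of each respiratory chain gene (y axis, authors' score) by complex (x axis), with biological replicate 1 above and 2 below. Points are genes, black lines group medians, crosses at 0 genes without a peak, the dashed line the median of all called genes and the grey band their quartiles; most points lie in or near the band, and all crosses are in complexes IV and V.

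The peaks sat close to the annotated starts. In replicate 1 the midpoint of the highest peak lay within 100 bp of a start for 73 of 88 genes (83.0%, 73.8 to 89.4%), beside 54.2% of all called genes. In replicate 2 this held for 40 of 88 (45.5%, 35.5 to 55.8%), beside 33.8%. The top peak covered a start itself in 64 of 88 genes in replicate 1 and 36 of 88 in replicate 2 (72.7% and 40.9%, beside 46.0% and 28.4%). The median distance to the nearest start, without its sign, was 47 bp in replicate 1 (86 bp over all called genes) and 115 bp in replicate 2 (188 bp). With its sign, the median lay 35 bp upstream in replicate 1 (−35 bp) and 45 bp upstream in replicate 2 (−45 bp). Both lists therefore placed these peaks nearer to a start than other genes' peaks, with replicate 2 the looser of the pair.

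Both lists marked overlapping positions in 85 of the 94 genes (90.4%), counting any pair of promoter peaks that shared 1 bp or more. Over all genes the share was 46.2%. Only 48.9% of all genes were called in both lists, so this contrast mostly repeats the difference in calls. The called genes without such an overlap were Ndufc2, Atp5h and the first record of Atp5o (ENSMUSG00000022956). The 85 fell to 73 when the paired peaks had to share 50% of their length. It fell to 69 when only peaks nearest to a start of the gene itself were used. The matching shares of all genes were not computed, so these falls cannot be set against the genome. The single highest peaks of the 2 lists overlapped in 59 of the 88 genes (67.0%, 56.7 to 76.0%), beside 51.0% of all genes called in both, and their midpoints lay a median of 80 bp apart, beside 140 bp over all genes called in both. Some calls rest on a peak away from the main start, the one used by most coding transcripts. With the main start alone, a choice made after the data were examined, 87 and 86 genes were called, and 57.0% and 43.9% of all genes. Atp5g2 was then lost in both lists.

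**Figure D3:**
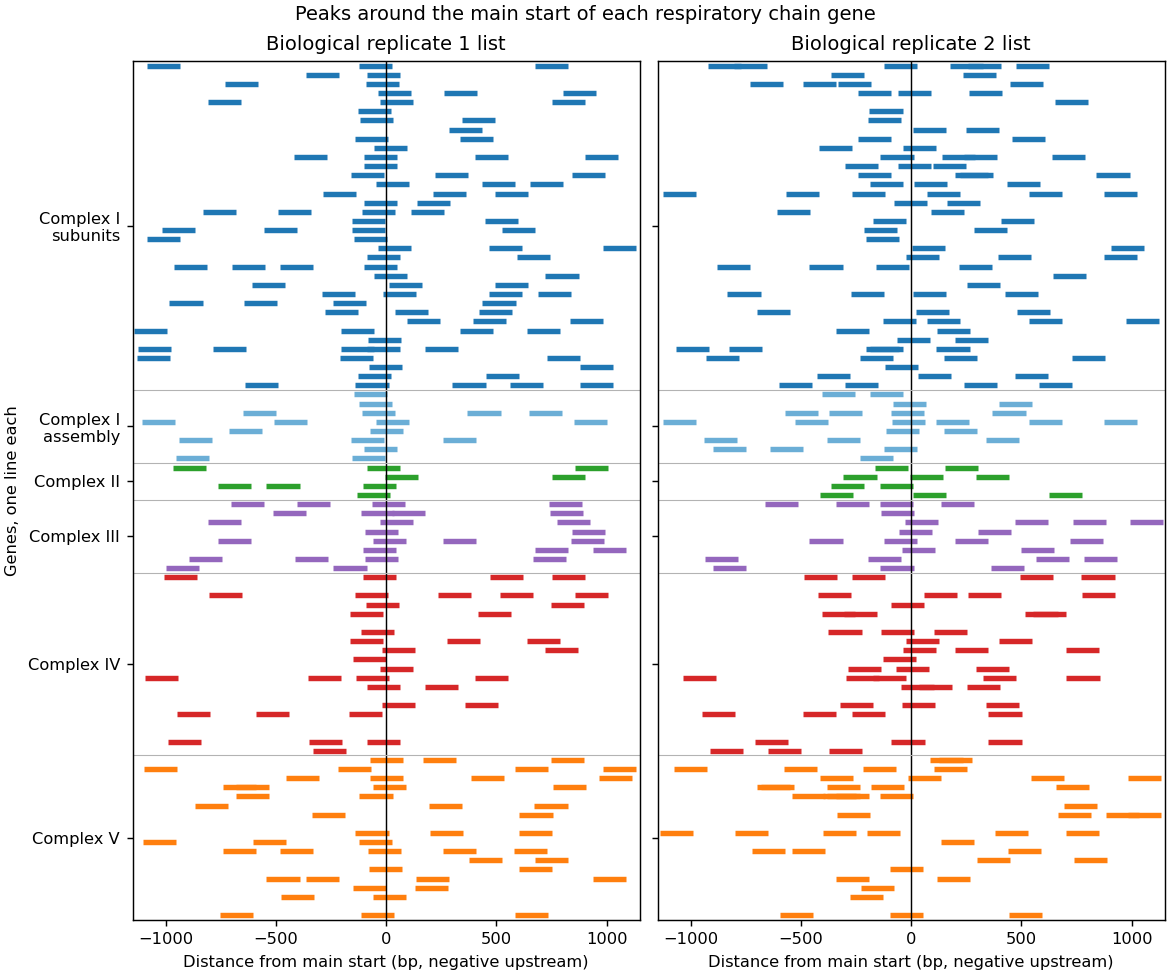
Peaks (bars 150 bp wide) around the main start of each respiratory chain gene (x axis, bp from the start, negative upstream; y axis, 1 line per gene, grouped by complex) in the list of each biological replicate. Bars stack near 0 in replicate 1, where 83.0% of top peaks lay within 100 bp of an annotated start, and are more spread in replicate 2, with 45.5%.

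A head-to-head neighbour was more common at these genes than over the genome. A protein-coding neighbour on the opposite strand started within 1000 bp upstream of 29 of 94 genes (30.9%, 22.4 to 40.8%), beside 9.34% of all genes. Neighbouring starts were 10 bp apart for Ndufa7 and the ribosomal protein gene Rps28, 29 bp for Sdha and Ccdc127, and 98 bp for Sdhd and Timm8b, which encodes a mitochondrial import chaperone. They were 101 bp apart for Cox4i1 and Emc8, 83 bp for Atp5c1 and Kin, 70 bp for Ndufaf7 and Cebpz, and 196 bp for Uqcrq and Gdf9. For 13 of 88 genes in replicate 1 (14.8%) and 19 in replicate 2 (21.6%) the highest peak lay nearer to a start of another gene, beside 9.40% and 11.2% of all called genes. At such promoters the peaks cannot be divided between the genes. Counting only peaks nearest to a start of the gene itself left 83 and 78 of 94, where 62.3% and 47.1% of all genes were called. The genes then called in both lists were 75, with no share of all genes computed to set beside them. Of the named genes, Sdhd and Uqcrq were then lost in replicate 1, and Ndufa11, Ndufaf7, Sdhc and Cox4i1 in replicate 2. Atp5j, which encodes a coupling factor of the ATP synthase stalk, shared its highest peak in both lists with Gabpa, which encodes the DNA-binding subunit of GABP. That peak scored 146 in replicate 1 (chr16:84834896-84835045) and 60 in replicate 2 (chr16:84835036-84835185).

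To show what these accessible sites hold, the stretches below come from named genes whose highest replicate 2 peak has a match to NRF1 (GCGCANGCG), ETS (CCGGAAG), YY1 (AANATGGCG) or ZNF143 (CTACANNTC), read on both strands. Capitals mark the matches, and each stretch is given 5′ to 3′ on the strand of its gene, here the minus strand for all 6, from mm10 and outside annotated exons. Atp5l (chr9:44920936-44921085, replicate 2 score 65) encodes subunit g of the ATP synthase and Atp5mpl (chr12:111967056-111967205, 25) a small proteolipid bound to it. Uqcr11 (chr10:80406831-80406965, 38) and Uqcr10 (chr11:4704536-4704677, 62) encode small subunits of complex III. The Uqcr10 peak lies nearer to a start of its head-to-head neighbour Zmat5 than to a start of Uqcr10. Atp5g1 (chr11:96075856-96076005, 60) encodes the c subunit of the proton-driven ring, and Cox8a (chr19:7217736-7217885, 45) the widely expressed subunit VIII of complex IV.
Atp5l, NRF1 then ETS: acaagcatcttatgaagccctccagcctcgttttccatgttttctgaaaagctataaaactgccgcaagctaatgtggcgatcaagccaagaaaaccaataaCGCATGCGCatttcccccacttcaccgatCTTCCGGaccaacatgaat
Atp5mpl, NRF1: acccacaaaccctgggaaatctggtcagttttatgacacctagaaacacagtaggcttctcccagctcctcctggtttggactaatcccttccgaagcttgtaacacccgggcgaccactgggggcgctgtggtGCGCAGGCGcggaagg
Uqcr11, ETS: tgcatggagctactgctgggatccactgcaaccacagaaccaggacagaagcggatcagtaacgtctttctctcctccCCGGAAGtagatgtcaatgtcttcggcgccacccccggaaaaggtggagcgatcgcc
Atp5g1, YY1: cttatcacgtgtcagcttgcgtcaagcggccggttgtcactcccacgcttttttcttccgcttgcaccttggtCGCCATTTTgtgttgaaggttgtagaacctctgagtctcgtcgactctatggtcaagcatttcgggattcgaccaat
Uqcr10, ZNF143 at 2 places: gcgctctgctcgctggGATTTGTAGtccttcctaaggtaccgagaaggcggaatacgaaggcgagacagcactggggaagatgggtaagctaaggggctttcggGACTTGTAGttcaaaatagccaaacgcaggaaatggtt
Cox8a peak, ZNF143: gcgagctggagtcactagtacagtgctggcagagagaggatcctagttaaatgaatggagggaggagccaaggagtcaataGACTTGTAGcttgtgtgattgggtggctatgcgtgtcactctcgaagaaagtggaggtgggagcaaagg
A match is a description of the letters and does not show that the factor was bound.

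NRF1 and ERR matches were more frequent in these promoters than over the genome. Over the 300-base windows around the main starts, 18 of 94 (19.1%, 12.5 to 28.3%) held the NRF1 letters, beside 8.43% of all windows. Among CpG-rich windows the shares were 25% and 16.6%, and the interval of the first (16.2 to 36.4%) includes the second. The ERR letters (AAGGTCA) were in 10 of 94 (10.6%, 5.88 to 18.5%), beside 4.12%, and in 13.2% against 2.38% of CpG-rich windows. The 10 were Ndufb2, Ndufb4, Ndufs1, Ndufs5, Sdhd, Uqcrq, Atp5e, Atp5g3, Atp5l and Atp5mpl, so they fell in complexes I, II, III and V and in no gene of complex IV. ETS matches were in 18.1% of the windows (11.6 to 27.1%) beside 11%, with 23.5% and 19.6% among CpG-rich ones. YY1 matches were in 6.38% beside 3.07% and ZNF143 matches in 8.51% beside 5.27%, with intervals (2.96 to 13.2% and 4.38 to 15.9%) that include the share of all windows. Of NRF1, ETS, YY1 and ZNF143, 54 of 94 windows (57.4%) held none, 32 (34.0%) held 1, 7 held 2 and 1 held 3, where 76.2% of all windows held none and 20.2% held 1.

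Within the highest peaks themselves the NRF1 letters were in 21.6% of the 88 genes in replicate 1 and 13.6% in replicate 2, beside 7.31% and 5.14% of all called genes. The ERR letters were in 4.55% (1.78 to 11.1%) in each list, beside 1.39% and 1.91%, the second of which lies inside the interval. YY1 letters were in 7.95% in each list, beside 2.31% and 2.29%. The letters of the erythroid GATA factors (AGATAA) were in 1 of 88 top peaks in replicate 1 (1.14%, 0.20 to 6.16%) and 2 of 88 in replicate 2 (2.27%, 0.63 to 7.91%), beside 4.01% and 4.78%, which lie inside these intervals. In the 300-base windows GATA was at 9.57% beside 10.0%. SP1 letters (GGGCGG) were in 45.7% of the windows beside 43.9%, but in 54.4% (42.7 to 65.7%) of the CpG-rich windows of these genes beside 73.1% of all CpG-rich windows. NFY (CCAAT) stood at 39.4% beside 38.9%, the USF E-box (CACGTG) at 8.51% beside 7.71%, and CREB (TGACGTCA) at 5.32% (2.29 to 11.9%) beside 2.43%. The core promoter box TATAAA stood at 11.7% beside 12.6%.

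Metal response elements, the letters TGCACNC or TGCGCNC bound by the zinc sensor Mtf1, were in 36 of 94 windows (38.3%, 29.1 to 48.4%), beside 28.3% of all windows. Among CpG-rich windows the shares were 42.6% and 43.0%. These letters overlap those of NRF1: 19 of the 55 matches in the respiratory chain windows shared bases with an NRF1 match, compared with 1181 of 8681 over all genes. A match clear of NRF1 was in 29.8% of the windows, beside 25.8% of all windows. In the highest peaks, matches were in 27.3% in replicate 1 (19.1 to 37.4%; 19.2% of all called genes) and 11.4% in replicate 2 (6.29 to 19.7%; 15.8%). Both intervals include the share of all called genes, which was the lower value in replicate 1 and the higher in replicate 2.

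**Figure D4:**
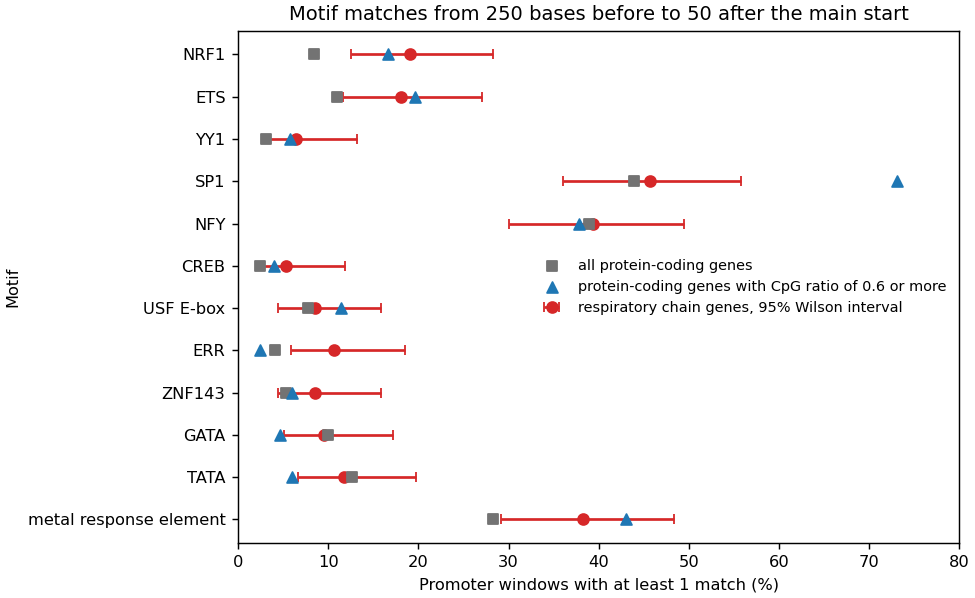
Share of 300-base promoter windows with at least 1 match (x axis, percent) for each of 12 motifs (y axis). Red circles are the 94 respiratory chain genes with 95% Wilson intervals, grey squares all protein-coding genes and blue triangles those with a CpG ratio of 0.6 or more; NRF1 (19.1% against 8.43%) and ERR (10.6% against 4.12%) lie to the right of the squares, and SP1 far to the left of its triangle.

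All 36 subunit genes of complex I, which oxidises NADH, were called. They had median scores of 138 and 50.5, the medians of their ranks being the 58.0th and 64.2nd percentile of all called genes. The highest replicate 2 scores belonged to the accessory subunit genes Ndufa10 (133 and 65), Ndufb5 (142 and 61) and Ndufa11 (136 and 60), with Ndufb3 (140 and 60) tied with Ndufa11 in replicate 2. Ndufa10 ranked at the 45.5th percentile in replicate 1, so its place was high in one list only. The lowest were Ndufc1 (121 and 19) and Ndufa1 (123 and 29), both of the membrane arm and low in both lists. At Ndufc1 the highest peak of replicate 1 lay 6 bp upstream of a start and that of replicate 2 lay 396 bp downstream of one. At Ndufa11 the highest peak of replicate 1 lay 656 bp upstream, beside Vmac, which starts 82 bp away head to head.

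The 8 complex I assembly factor genes had medians of 139.5 and 46. Ndufaf3 scored 141 and 55, and its partner in assembly Ndufaf4 125 and 41. Ndufaf1, which helps to build the membrane arm, scored 144 and 53. Ndufaf7, a methyltransferase of the mitochondrial matrix, scored 137 and 51, and Ndufaf5, which hydroxylates Ndufs7, 139 and 41. The top peaks of these 5 named genes lay no farther than 104 bp from a start in both lists, as did those of Ndufaf2. This did not hold for all 8 genes. The top peaks of Ndufaf6 lay at −866 bp from a start in replicate 1 and −306 bp in replicate 2. That of Ndufaf8 lay at −78 bp in replicate 1 and −158 bp in replicate 2.

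Complex II, succinate dehydrogenase, is the only complex of the chain encoded wholly in the nucleus, and all 4 of its genes were called. Sdha, the flavoprotein that oxidises succinate, scored 131 and 50. Sdhb, the iron-sulfur subunit, scored 145 and 40. The membrane anchors Sdhc and Sdhd scored 136 and 35, and 139 and 46. Order within the complex was not kept between the lists: Sdhb was the highest of the 4 in replicate 1, while Sdha was the lowest there and the highest in replicate 2. The main start of Sdhd lies at chr9:50603812 on the minus strand, and its window held NRF1, ETS, ERR, SP1 and metal response letters.

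The 8 complex III genes had medians of 138.5 and 43.5. Uqcr10 scored 146 and 62, Uqcrq 138 and 55, and Uqcrh, the hinge protein, 139 and 49. Uqcrfs1, the Rieske iron-sulfur protein that takes electrons from ubiquinol, scored 136 and 34, and Uqcr11 131 and 38. Uqcr10 was thus the highest of the complex in both lists, but through peaks nearer to a start of Zmat5. Its highest peak lay 328 bp upstream of the start in replicate 1 and 268 bp upstream in replicate 2. The Zmat5 start is 336 bp away. The replicate 1 peak 12 bp downstream of the Uqcr10 main start scored 143, below the 145 of Uqcrc2. The replicate 2 peak 68 bp upstream of that start scored 57, above the 55 of Uqcrq. Cyc1, the cytochrome c1 subunit that its symbol kept out of the 94 genes, scored 126 in replicate 1 and was not called in replicate 2.

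Complex IV, cytochrome c oxidase, held 5 of the 6 gene records without a peak, and each of those 5 is known as a tissue-restricted isoform. Cox6a2 and Cox8b are the forms of heart and skeletal muscle, Cox7b2 and Cox8c are known from testis, and Cox4i2 from lung and from cells in low oxygen. Their widely expressed counterparts all had peaks, scoring 136 and 45 for Cox6a1, 148 and 45 for Cox8a, 144 and 46 for Cox7b, and 140 and 38 for Cox4i1, which was no longer called in replicate 2 when only peaks nearest to its own starts were counted. The other restricted or induced isoforms did have peaks. Cox7a1, also a muscle form, scored 142 and 47, close to 143 and 51 for Cox7a2, and its 2 peaks lay no farther than 74 bp from a start. Of the 4 skeletal muscle markers, Ckm had peaks (98 and 24) and Acta1, Myf5 and Myh1 had none; their part in the Cox7a1 result was not tested. Cox6b2, of testis, scored 125 and 29 beside 131 and 44 for Cox6b1, and Ndufa4l2, known to be induced in low oxygen, 103 and 36 beside 133 and 53 for Ndufa4. In all 8 pairings the restricted form was lower than its counterpart or without a peak in both lists.

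Peaks outside the window were nearer for some of the 5 uncalled isoforms than for others. For Cox4i2 the nearest peak edge lay 1082 bp from a start in replicate 1 (score 41) and 1542 bp in replicate 2 (score 45). For Cox6a2 it lay 1342 bp away (score 112) and 1362 bp (19), and for Cox8b 1221 bp (72) and 2910 bp (25). Cox7b2 had its nearest peak 2380 bp away in replicate 1 (52) and 655031 bp away in replicate 2 (44). For Cox8c the distances were 3731 bp (34) and 20491 bp (37). Cox4i2, Cox6a2 and Cox8b thus have a peak within 2000 bp in replicate 1, and the count of called genes depends on the window to that extent. At Cox4i1 the highest peaks lay 714 and 734 bp downstream of a start, nearest to a start of Emc8.

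CpG content differed among these isoforms, with ratios of 0.842 for Cox8a, 0.115 for Cox8b and 0.460 for Cox8c, and of 1.20 for Cox4i1 and 0.538 for Cox4i2. To show this, the 150 bases just before the main start are given for Cox8a (chr19:7217617-7217766, minus strand), Cox8b (chr7:140900447-140900596, minus strand), Cox8c (chr12:102899166-102899315, plus strand) and Cox4i2 (chr2:152754023-152754172, plus strand), in mm10, 5′ to 3′ on the strand of the gene. Capitals mark each CpG.
Cox8a upstream: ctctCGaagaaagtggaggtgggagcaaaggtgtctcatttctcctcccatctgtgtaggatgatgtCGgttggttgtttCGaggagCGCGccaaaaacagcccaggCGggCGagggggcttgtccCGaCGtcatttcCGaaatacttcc
Cox8b upstream: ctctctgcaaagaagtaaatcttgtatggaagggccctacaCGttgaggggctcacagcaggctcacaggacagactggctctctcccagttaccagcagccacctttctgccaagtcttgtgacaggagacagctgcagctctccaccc
Cox8c upstream: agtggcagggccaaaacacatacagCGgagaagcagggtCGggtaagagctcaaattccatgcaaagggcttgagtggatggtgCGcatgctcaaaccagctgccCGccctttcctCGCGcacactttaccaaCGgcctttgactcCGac
Cox4i2 upstream: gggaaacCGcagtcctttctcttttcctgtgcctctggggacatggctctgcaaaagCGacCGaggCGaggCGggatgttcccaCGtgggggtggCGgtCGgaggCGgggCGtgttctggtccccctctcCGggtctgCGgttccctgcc
They hold 10, 1, 8 and 12 CpG in that order. The muscle form Cox8b is the one nearly free of CpG, whereas Cox8c and Cox4i2 were without a peak with 8 and 12. Cox7a1, with a ratio of 0.304, had a peak in both lists.

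**Figure D5:**
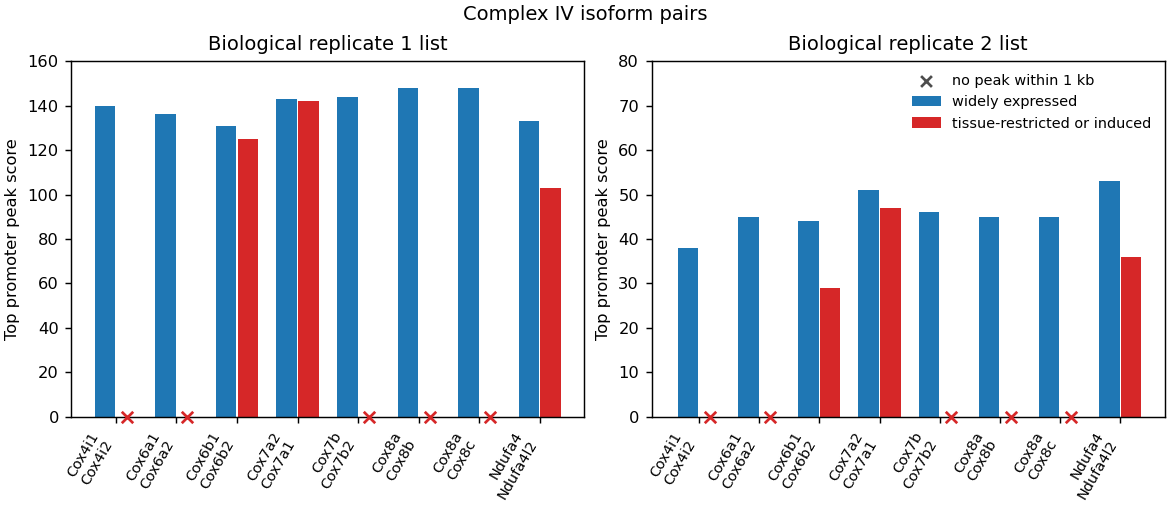
Highest promoter peak score (y axis, authors' score) of 8 pairings of widely expressed (blue) and tissue-restricted or induced (red) complex IV genes, for each biological replicate. Crosses mark genes with no peak within 1 kb; all blue genes have a bar, and 5 of the 8 red ones have none in either list.

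Complex V genes had medians of 139 and 51 (61.1st and 66.0th percentile). The 51 was the highest group median in replicate 2, but close to the 50.5 of the complex I subunits, with overlapping 95% intervals (47 to 56 and 45 to 55). In replicate 1 complex IV (140) and the complex I assembly factors (139.5) had higher medians. Atp5g1 and Atp5g2 encode the same mature c subunit behind different import sequences, and scored 149 and 60, and 137 and 71. The 71 of Atp5g2 was the highest replicate 2 score of all 88 genes, and the 149 of Atp5g1 was, with that of Atp5d, the highest in replicate 1. The Atp5g2 peaks lay 1182 and 1262 bp downstream of its main start, at another annotated start of the gene. Atp5l scored 136 and 65. The lowest were Atp5mpl (117 and 25) and, in replicate 2, Atp5e (138 and 36), the epsilon subunit of the catalytic head. The second record of Atp5o starts at chr16:91926982, inside the first record, and had no peak nearer than 4614 bp in replicate 1 (133) and 4834 bp in replicate 2 (42). The first record of Atp5o, which encodes the subunit that joins head and stalk, scored 133 and 42.

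Genes that serve the chain but fall outside the symbols chosen were also called for the most part. All 32 assembly factors of complexes I to V on a separate list had a promoter peak in both lists, beside 48.9% of all protein-coding genes. Of 8 electron carriers and feeders, 8 were called in replicate 1 and 7 in replicate 2, beside 63.6% and 49.0% of all genes. Cyc1 was the exception, and Cycs, cytochrome c, scored 139 and 40. Of 16 regulators of respiratory genes, 15 were called in both lists, beside 48.9% of all genes. Nrf1 scored 134 and 43, Gabpa 146 and 60, Esrra (an ERR receptor) 142 and 55, and Tfam, which packages the mitochondrial genome, 123 and 32. The gene without a peak was Ppargc1a, the coactivator PGC-1 alpha that is known for raising mitochondrial content in muscle and brown fat.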

How the data were processed

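DNase-seq of zinc-treated MEL cells was analysed from 4 deposited lists. The authors deposited peaks with a score (meaning not stated) and hotspots with the −log10 of a q value. The whole-series lists were read as biological replicate 1, because the deposited records of its 2 libraries, and not that of replicate 2, name their alignment. Alignment was to mm10, per the labels. For the aligner, caller and filters: not given in the sources used here. Depth is unknown.

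Lists were joined to GENCODE release 21 and GRCm38 sequence with Python 3.11.15, pysam 0.24.0 and samtools 1.23.1. All 84 comparisons of a list with a chromosome lay within the reference length. Of 93 symbols, 74 are in the RefSeq promoter table, and 79 of 79 windows compared were identical to it. Counting was checked on simulated data. With 1 group and 1 list per biological replicate no test was possible and no p-value is given. Intervals of shares are Wilson 95% intervals and cover counting error only. The 95% intervals of medians come from the ordered values of the genes. Members, lists and motifs were chosen with earlier results of these data known.

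Named genes were members without a peak, the 3 highest and 2 lowest by replicate 2 score in each complex, complex II, the isoform pairs and listed context genes, plus neighbours and a few marked as chosen later. Sequences are those of named genes with a motif in the top replicate 2 peak (up to 2 per motif) and of the Cox4i and Cox8 pairs; the bases before Cox4i1 lie in annotated exons and are not shown. Alternatives covered the window, overlap, score cut, list length, starts and motif region.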

Additional observations from a re-analysis of the deposited data

Results flagged for a closer look

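The nuclear promoters above were read without the mitochondrial genome, which encodes the remaining subunits of complexes I, III, IV and V. It held 17 peaks in the replicate 1 list (scores 124 to 150, median 150) and 30 in the replicate 2 list (scores 83 to 133, median 126). These are noted because they lie in data the comparisons did not use. There is no control library to set them against, and no intervals for counts of reads could be given.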

How the results depend on the processing

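No paired analysis was possible because all libraries belong to 1 group. Of 115 values under alternatives, 90 stayed close to the value given above and 25 moved. Genes called in replicate 1 and 2 were 88 and 86 with a 500 bp window (59.3% and 46.4% of all genes), 91 and 90 with 2000 bp (69.9% and 52.4%), and 88 and 84 among peaks at or above the median score of their list (57.2% and 44.3%). With the replicate 1 list reduced by score to 105810 peaks, near the 106279 of replicate 2, they were 88 and 88 (54.5% and 49.0%). Taking 1 biological replicate alone gave 88 and 88. Hotspots at the ceiling alone left 48 genes in replicate 2. Motif shares moved with the stretch searched, given here with the share of all genes after each. With 1000 bases before the start they were 59.6% for SP1 (51.7%), 72.3% for NFY (78.2%), 16.0% for the E-box (17.1%), 25.5% for ERR (17.7%), 18.1% for ZNF143 (13.2%), 50% for GATA (40.8%), 45.7% for TATA (45.8%) and 69.1% for metal response elements (54.6%), and the median CpG ratio of the respiratory chain genes was 0.564. In the top peaks of replicate 1, beside all called genes, they were 33.0% for SP1 (41.9%), 27.3% for NFY (29.0%), 3.41% for the E-box (6.03%), 4.55% for ERR (1.39%), 1.14% for GATA (4.01%), 3.41% for TATA (2.78%) and 27.3% for metal response elements (19.2%). In those of replicate 2 they were 10.2% for ETS (8.58%), 18.2% for SP1 (25.5%), 18.2% for NFY (23.7%), 2.27% for CREB (1.38%), 4.55% for ERR (1.91%), 2.27% for GATA (4.78%), 5.68% for TATA (3.15%) and 11.4% for metal response elements (15.8%). Set against all genes, 6 of the 12 motifs (SP1, NFY, the E-box, GATA, TATA and metal response elements) were above in some of the 4 stretches searched and below in others. NRF1, ETS, YY1, CREB, ERR and ZNF143 were above in all 4, but these stretches share bases and were set against genes of any CpG ratio. The intervals of CREB and ZNF143 included the share of all genes in every stretch. Those of ETS, YY1 and ERR did so in some, and that of NRF1 in none. Windows and peaks differ in length, so more or fewer bases were searched. Unknown depth limits any reading of a missing peak.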
